A study of Mus musculus with 9 samples.

Results

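The genes described here are 8 receptors for chemokines: the signalling receptors Cxcr3, Cxcr4, Cxcr5, Ccr6, Ccr7 and Ccr9 and the atypical receptors Ackr2 and Ackr3. They were chosen by name, with earlier results of these data known, and each had 1 row among the 24459 rows of the gene table. Splenic B cells of naive mice 8 to 10 weeks old were sorted into 3 subsets by flow cytometry, and RNA from each sort was sequenced. FO (follicular) B cells were B220+, IgM intermediate, CD21 intermediate, CD23+ and CD93- with high IgD. BDL (IgD-low B cells, named FO-IgD-Lo in the labels) came from the same gate with low or no IgD. MZ (marginal zone) B cells were B220+ with high IgM and high CD21, and lacked CD23 and CD93. Each subset had 3 libraries, dated by 3 label dates that are shared by all subsets and numbered here as replicates 1 to 3. Each sort pooled 5 mice, and the labels name no treatment or transgene for any group. The labels give the strain as C57/BL6, whereas the paper names B10.PL for the sequenced cells, and nothing in the files settles it. The p-values rest on the spread between the 3 sorts within a subset, estimated over all 9 libraries together. Sorts of different subsets share label dates, which the fit behind these p-values left out.

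Chemokine receptors are seven-transmembrane proteins that couple to inhibitory G proteins and steer cells up gradients of small secreted chemokines. Cxcr5 draws B cells into the follicle towards Cxcl13, Ccr7 draws them to the edge of the T cell zone towards Ccl19 and Ccl21, and Cxcr4 responds to Cxcl12. Atypical receptors bind chemokines without G protein signalling and remove them: Ackr3 takes up Cxcl12, and Ackr2 takes up inflammatory CC chemokines. MZ B cells sit at the border of the white pulp and shuttle into the follicle, whereas FO B cells recirculate.

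Promoter sequence is shown for the receptors whose levels differed most between the subsets, with Ackr3 and Cxcr4 next to each other because they bind the same chemokine. RefSeq promoter windows on GRCm38.p6 were found for 6 of the 8 genes, in 7 windows, and the 250 bases before the start are given 5′ to 3′ on the strand of the gene. Ccr7 and Cxcr5 had no entry. Capitals mark the letters TATAAA, which core promoter factors bind, and TGGGAA, the core bound by the Notch effector RBPJ, each on either strand.

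Ackr3 (chr1:90203730-90203979, plus strand): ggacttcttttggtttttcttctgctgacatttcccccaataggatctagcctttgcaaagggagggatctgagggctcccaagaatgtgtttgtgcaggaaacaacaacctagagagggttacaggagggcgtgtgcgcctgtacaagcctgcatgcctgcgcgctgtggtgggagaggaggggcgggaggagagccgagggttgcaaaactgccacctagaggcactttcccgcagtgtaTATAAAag

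Cxcr4 (chr1:128592300-128592549, minus strand): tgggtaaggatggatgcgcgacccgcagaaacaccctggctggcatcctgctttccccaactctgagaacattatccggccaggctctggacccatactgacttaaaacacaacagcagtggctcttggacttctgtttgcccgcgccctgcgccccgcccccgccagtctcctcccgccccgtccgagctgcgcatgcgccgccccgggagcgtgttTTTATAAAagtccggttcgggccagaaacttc

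Ackr2 (chr9:121898105-121898354, plus strand): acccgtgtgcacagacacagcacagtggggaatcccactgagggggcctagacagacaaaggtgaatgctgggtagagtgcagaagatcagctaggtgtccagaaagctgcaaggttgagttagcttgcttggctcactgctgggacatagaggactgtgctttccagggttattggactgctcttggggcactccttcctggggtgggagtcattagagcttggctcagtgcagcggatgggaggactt

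Ccr6, the second of its 2 windows (chr17:8242276-8242525, plus strand): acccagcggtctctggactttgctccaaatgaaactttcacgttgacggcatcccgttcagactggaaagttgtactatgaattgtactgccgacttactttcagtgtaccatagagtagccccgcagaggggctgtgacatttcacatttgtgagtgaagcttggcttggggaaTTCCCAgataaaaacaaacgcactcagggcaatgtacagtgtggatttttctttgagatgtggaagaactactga

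The letters TATAAA were found at position -8 of Ackr3 and at -30 of Cxcr4 on the strand of the gene, counted from the start, and the Cxcr4 match overlaps a second one on the other strand, at -32. They were chosen as a motif after these sequences had been seen, and 12.4% of all 32851 promoter windows of this length hold them. TGGGAA lay in 1 of the 2 Ccr6 windows, at -75 on the other strand, and in 21.6% of all windows. CACCC, the core bound by Kruppel-like factors and not set in capitals, lay in the windows of Ackr2, Ccr9 and Cxcr4 and in 52.0% of all windows. These matches describe letters only.

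Values are FPKM, fragments over transcript length and sequencing depth, so that levels of different genes are on 1 scale per length. From the steps between low values, 1 fragment per kilobase was worth about 0.0137 to 0.0183 FPKM, which gives an estimated 54.6 to 73.0 M fragments per library. The summed FPKM of 5 B cell markers lay between 2920 and 4240 and that of 8 T cell markers between 2.37 and 4.85. The gate was seen in the RNA: Cr2 (CD21) had a mean of 454 FPKM in MZ B cells, 141 in FO B cells and 107 in BDL, and Fcer2a (CD23) 29.6, 496 and 427. Cd93, which the gate left out as protein, had 12.5 FPKM in BDL against 3.90 in FO and 1.41 in MZ B cells. In the paper, CD93 protein by flow cytometry was also highest on BDL of the 3 subsets. The refined BDL phenotype was given there as CD93 intermediate. BDL replicate 3 stood apart from the other BDL libraries in some genes, with Rasgrp2 at 75.8 FPKM against 124 and 109. In bulk RNA, fewer cells that express a gene and less RNA per cell cannot be told apart.

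**Figure D1:**
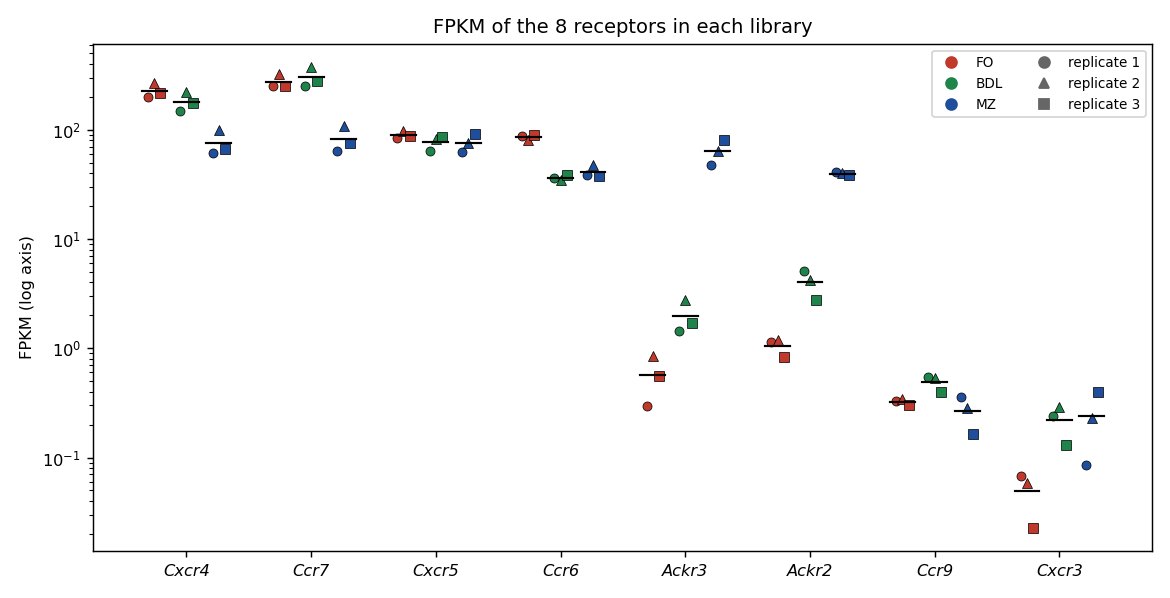
FPKM on a log axis for each of the 8 receptors in the 9 libraries, coloured by subset, with the replicate (label date) as the marker shape and the mean of 3 libraries as a bar. Ackr3 and Ackr2 rise from FO through BDL to MZ B cells, Cxcr4 and Ccr7 are lowest in MZ B cells, Ccr6 is highest in FO B cells, and Ccr9 and Cxcr3 lie under 0.6 FPKM throughout.

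Of the 8 receptors, 6 passed the minimum mean of 0.5 FPKM over the 9 libraries, which 11597 rows passed, and were tested with limma. The threshold for a call was an adjusted p of 0.05 together with a 2-fold difference. Between MZ and FO B cells, 5 of the 6 were called, Ackr3 and Ackr2 as higher in MZ and Ccr7, Cxcr4 and Ccr6 as lower, where 5.54% of all rows tested were called higher and 3.39% lower. Between BDL and FO B cells 3 of the 6 were called, Ackr2 and Ackr3 as higher in BDL and Ccr6 as lower, against 1.64% and 0.267% of all rows. Between BDL and MZ B cells 4 were called, Ccr7 and Cxcr4 as higher in BDL and Ackr3 and Ackr2 as lower, against 3.47% and 4.34%. The 3 values of each subset did not overlap for 5 of the 6 receptors between MZ and FO B cells (46.1% of all rows), 3 between BDL and FO B cells (34.8%) and 4 between BDL and MZ B cells (38.9%). The median size of the log2 difference over the 6 receptors was 1.68, 0.78 and 1.58 in these 3 comparisons, beside 0.25, 0.21 and 0.27 over all rows. The members, like the gene lists below, were chosen with earlier results of these data known. Their counts and medians therefore cannot show whether chemokine receptors as a family differ more than other genes. The 2 comparisons with FO B cells share their FO libraries, and likewise those with BDL and with MZ B cells share theirs.

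**Figure D2:**
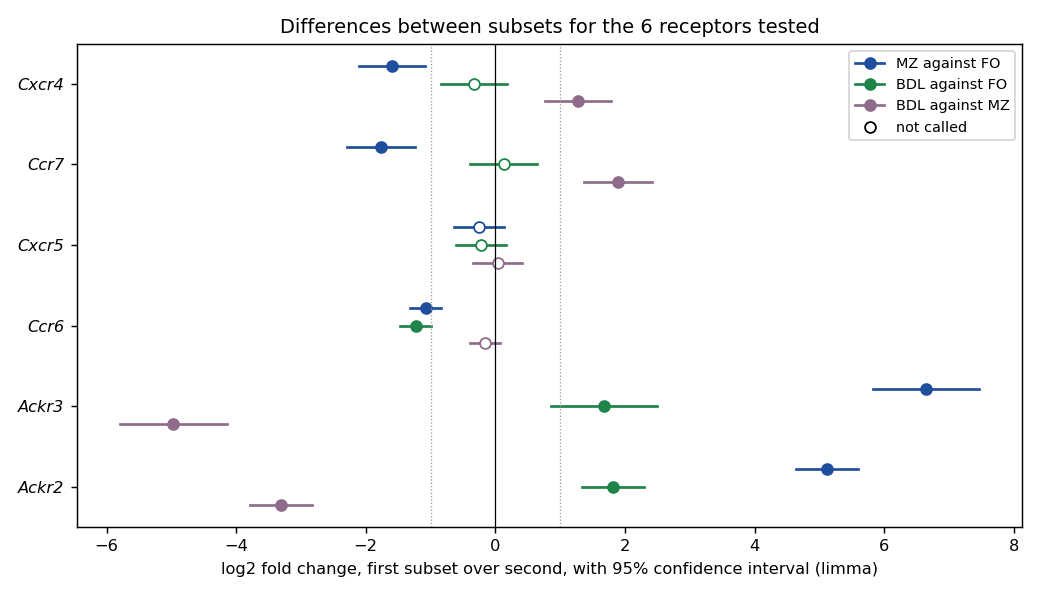
Log2 fold change with its 95% confidence interval from limma for the 6 tested receptors in the 3 comparisons, with open circles where a difference was not called and dotted lines at a fold of 2. The Cxcr5 intervals all include 0, whereas Ackr3 and Ackr2 lie far to the right in MZ against FO B cells and to the left in BDL against MZ B cells.

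Cxcr4 and Ackr3, the signalling and the scavenging receptor for Cxcl12, went in opposite directions between MZ and FO B cells. Cxcr4 (chromosome 1, 130484776 to 130488870, minus strand, mm9) stood at 198, 265 and 217 FPKM in FO B cells, at 148, 222 and 174 in BDL and at 61.1, 99.4 and 66.9 in MZ B cells, in the order of replicates 1 to 3. The FO and BDL values overlapped, and all MZ values lay under both. Relative to FO B cells, Cxcr4 was 3.03-fold lower in MZ B cells (log2 -1.60, SE 0.22, adjusted p = 0.00101). It was 2.41-fold higher in BDL than in MZ B cells (log2 1.27, SE 0.22, adjusted p = 0.00375). With the libraries of label date 1 or 3 left out this last call was lost, at an adjusted p of 0.0552 and 0.051. Between BDL and FO B cells the Cxcr4 difference was -0.33 on the log2 scale, with a 95% interval from -0.84 to 0.18 and an adjusted p of 0.394. Within each label date BDL had less Cxcr4 than FO B cells, by -0.42, -0.26 and -0.32 on the log2 scale, and with the date as a block the adjusted p was 0.0363 at the same size, under the fold minimum.

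Ackr3 (chromosome 1, 92100555 to 92113326, plus strand, listed as Cxcr7 in GENCODE M1) was nearly silent in FO B cells at 0.294, 0.846 and 0.558 FPKM. BDL had 1.45, 2.78 and 1.70 FPKM and MZ B cells 47.2, 63.6 and 81.2. No value of one subset reached into another. The MZ mean was 64.0 ± 17.0 FPKM (SD, n = 3), and the log2 fold change over FO B cells of 6.64 (SE 0.36, adjusted p = 6.42e-06) ranked 9th highest of all rows tested. In BDL, Ackr3 was 3.2-fold above FO B cells (log2 1.68, SE 0.36, adjusted p = 0.0288) and 31.2-fold below MZ B cells (log2 -4.97, SE 0.36, adjusted p = 3.58e-05). The BDL mean was 3.09% of the MZ mean, which put BDL 2.22% of the way from FO to MZ B cells. The BDL call over FO B cells was lost in 11 of 22 alternatives, with adjusted p-values from 0.00663 to 0.218. They included a value of 1 added in place of 0.1, each BDL library left out in turn, FO replicate 1, FO replicate 3 or MZ replicate 2 left out, the 6 libraries alone, and each label date left out. The direction held in all 22, with log2 values from 0.92 to 1.98.

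The ratio of Ackr3 to Cxcr4 within a library separated the 3 subsets. It was 0.00149, 0.00319 and 0.00257 in FO B cells, 0.00985, 0.0125 and 0.00977 in BDL and 0.773, 0.64 and 1.21 in MZ B cells, so that in MZ replicate 3 there was more FPKM of Ackr3 than of Cxcr4. Cxcl12 itself was at or under 0.0249 FPKM in every library, and Cxcl11, another ligand of Ackr3, did not pass the minimum. Mif, which binds both receptors, had means of 64.3 FPKM in FO B cells, 108 in BDL and 97.7 in MZ B cells. The ratios are a description and were not tested.

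Ccr7 was the most abundant of the receptors on average in all 3 subsets and fell with Cxcr4 in MZ B cells. Ccr7 (chromosome 11, 99005510 to 99016391, minus strand) stood at 251, 323 and 251 FPKM in FO B cells, 252, 375 and 280 in BDL, and 63.7, 108 and 74.9 in MZ B cells. The FO and BDL values overlapped nearly throughout, and no MZ value came near them. MZ B cells had 3.40-fold less than FO B cells (log2 -1.77, SE 0.23, adjusted p = 0.000673), and BDL had 3.71-fold more than MZ B cells (log2 1.89, SE 0.23, adjusted p = 0.000514). Between BDL and FO B cells the difference was 0.13 on the log2 scale, with a 95% interval from -0.39 to 0.65 (adjusted p = 0.755). That interval leaves out a 2-fold change either way.

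The ratio of Ccr7 to Cxcr4 was higher in each BDL library than in any library of the other subsets. It was 1.71, 1.69 and 1.61 in BDL, 1.27, 1.22 and 1.16 in FO B cells and 1.04, 1.09 and 1.12 in MZ B cells. These 3 ranges did not overlap, although neither gene was called between BDL and FO B cells. The difference was not tested, and how often the ratios of other gene pairs separate in this way was not counted. The spread of the ratio was small beside that of the levels, at 1.67 ± 0.0498 (SD, n = 3) in BDL and 1.21 ± 0.0558 in FO B cells.

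Cxcr5, the receptor that brings B cells into follicles, was the one tested member with no call in any comparison. Cxcr5 (chromosome 9, 44319871 to 44334504, minus strand) stood at 83.4, 97.4 and 87.8 FPKM in FO B cells, 63.5, 83.0 and 86.1 in BDL, and 62.1, 75.0 and 90.9 in MZ B cells. All 3 subsets overlapped. The log2 difference of MZ from FO B cells was -0.25, with a 95% interval from -0.63 to 0.13 (adjusted p = 0.323). For BDL against FO B cells it was -0.22, from -0.60 to 0.17 (adjusted p = 0.457), and for BDL against MZ B cells 0.03, from -0.35 to 0.42 (adjusted p = 0.909). A change of 2-fold lay outside each of these intervals. Since Ccr7 was lower in MZ B cells and Cxcr5 was not called, the ratio of Cxcr5 to Ccr7 was 0.96 ± 0.261 (SD, n = 3) there, beside 0.328 ± 0.024 in FO B cells and 0.26 ± 0.0434 in BDL.

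**Figure D3:**
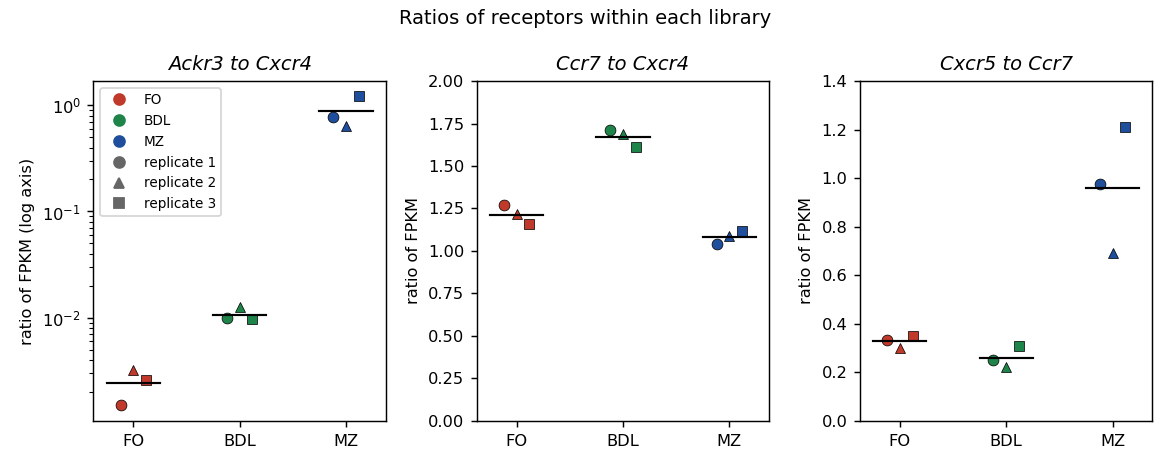
Ratios of FPKM within each library for 3 pairs of receptors, by subset, with the replicate as the marker shape and the mean as a bar; the first panel has a log axis and the others start at 0. The Ackr3 to Cxcr4 ratio separates all 3 subsets, the Ccr7 to Cxcr4 ratio is highest in BDL, at 1.61 to 1.71, and the Cxcr5 to Ccr7 ratio is highest in MZ B cells.

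Ccr6, the receptor for Ccl20, was the only tested member lower in BDL than in FO B cells at the threshold. Ccr6 (chromosome 17, 8429077 to 8449992, plus strand) stood at 87.6, 81.1 and 88.6 FPKM in FO B cells, 36.2, 34.9 and 38.2 in BDL, and 38.2, 47.1 and 37.4 in MZ B cells. The FO values lay far above both other subsets, which overlapped. Ccr6 was 2.35-fold lower in BDL than in FO B cells (log2 -1.23, SE 0.10, adjusted p = 0.000551), the 146th lowest of all rows tested. On the 3 label dates the log2 difference was -1.27, -1.21 and -1.21. Without the libraries of label date 1 the call was lost (adjusted p = 0.098) at a log2 value of -1.21. In MZ B cells Ccr6 was 2.1-fold lower than in FO B cells (log2 -1.07, SE 0.10, adjusted p = 0.000132), close to the fold minimum: without label date 3 it was -0.99. BDL and MZ B cells differed by -0.16 on the log2 scale (95% interval -0.40 to 0.08, adjusted p = 0.294). Ccl20 was listed at 0 in every library.

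Ackr2, the scavenger of inflammatory CC chemokines, followed the order FO, BDL, MZ like Ackr3 but with a smaller span. Ackr2 (chromosome 9, 121807473 to 121820182, plus strand, listed as Ccbp2 in GENCODE M1) stood at 1.13, 1.19 and 0.834 FPKM in FO B cells, 5.05, 4.2 and 2.79 in BDL, and 41.2, 39.8 and 38.2 in MZ B cells. The 3 subsets did not overlap. MZ B cells had 34.9-fold more than FO B cells (log2 5.12, SE 0.21, adjusted p = 1.54e-06), the 29th highest of all rows. BDL had 3.51-fold more than FO B cells (log2 1.81, SE 0.21, adjusted p = 0.00256) and 9.94-fold less than MZ B cells (log2 -3.31, SE 0.21, adjusted p = 1.9e-05). The BDL mean was 10.1% of the MZ mean, which is 7.66% of the way from FO to MZ B cells. The call over FO B cells was lost without label date 1 (adjusted p = 0.144) or label date 2 (0.111), at log2 values of 1.68 and 1.85.

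Ccr1, a signalling receptor that shares inflammatory CC chemokines with Ackr2, showed the same order. It stood at 0.791, 1 and 1 FPKM in FO B cells, 2.13, 2.04 and 2.48 in BDL, and 12.3, 12.7 and 13.4 in MZ B cells, with no overlap. Its log2 fold change was 3.65 in MZ over FO B cells (SE 0.12, adjusted p = 7.35e-07), 1.17 in BDL over FO B cells (adjusted p = 0.00128) and -2.48 in BDL against MZ B cells (adjusted p = 4.9e-06). The call in BDL over FO B cells was lost with 1 in place of 0.1 added (log2 0.74), without label date 1 (adjusted p = 0.128) and without label date 2 (0.0678). The ratio of Ackr2 to Ccr1 was 1.15 ± 0.303 (SD, n = 3) in FO B cells, 1.85 ± 0.646 in BDL and 3.12 ± 0.255 in MZ B cells. Ccr1 is also a receptor of myeloid cells. The summed FPKM of 7 myeloid markers ran from 2.66 to 9.48 in FO B cells, 6.23 to 12.5 in BDL and 3.62 to 11.6 in MZ B cells, none of the 7 being at 0 in all libraries of a subset. Of that list Itgam alone was called in MZ over FO B cells (means 1.80 and 0.787 FPKM) and Emr1 alone in BDL over FO B cells (3.48 and 0.802). The part of other cells in the Ccr1 and Ackr2 differences was not tested.

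Ccr9 and Cxcr3 lay under the minimum and were not tested in the fit. Ccr9, the gut-homing receptor for Ccl25, stood at 0.329, 0.344 and 0.301 FPKM in FO B cells, 0.543, 0.536 and 0.395 in BDL, and 0.356, 0.284 and 0.163 in MZ B cells. All BDL values lay above all others. With the minimum set at 0.1 FPKM, a choice made after the values had been seen, BDL exceeded MZ B cells by 0.71 on the log2 scale (adjusted p = 0.041), and with no minimum the adjusted p was 0.0526. Both are under the fold minimum. In GENCODE M1, the source of the coordinates, exons of Ccr9 (chromosome 9, 123587557 to 123691089, plus strand) overlap those of Slc6a20a, Gm17200 and Gm17021. The annotation behind the FPKM is not given, so whether such an overlap affects the value is not known.

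Cxcr3 (chromosome X, 98926874 to 98929608, minus strand), which binds the interferon-induced ligands Cxcl9, Cxcl10 and Cxcl11, stood at 0.0678, 0.0587 and 0.0227 FPKM in FO B cells. BDL had 0.240, 0.289 and 0.130 FPKM and MZ B cells 0.0855, 0.231 and 0.399. These levels correspond to about 2 to 7 fragments in FO B cells, 16 to 32 in BDL and 8 to 38 in MZ B cells. The log2 difference of MZ from FO B cells was 1.08 (adjusted p = 0.0613 with a minimum of 0.1 FPKM and 0.0777 with none). For BDL against FO B cells it was 1.07 (adjusted p = 0.116 with the lower minimum). Both other subsets lay above FO B cells in every library, and neither difference passed the threshold at this depth. Cxcr3 is also made by T and NK cells. The summed FPKM of 5 NK cell markers was 2.36 to 6.78 in FO B cells, 3.26 to 5.80 in BDL and 7.01 to 11.5 in MZ B cells, and that of 8 T cell markers 2.94 to 4.50, 2.37 to 4.56 and 2.38 to 4.85. Most of the NK sum of MZ B cells was Prf1, at 5.39, 7.26 and 8.85 FPKM beside 1.11, 1.86 and 1.35 in FO B cells (log2 2.24, adjusted p = 0.000606 in limma). The other NK markers tested, Gzma and Klrd1, were not called between MZ and FO B cells (adjusted p = 0.792 and 0.202), and Ncr1 and Klrb1c averaged 0.186 and 0.149 FPKM in MZ B cells and 0.186 and 0.169 in FO B cells. Klrd1 was higher in BDL than in FO B cells by 1.58 on the log2 scale, with no call (adjusted p = 0.0846 in limma). Klrb1c averaged 0.405 FPKM in BDL. For both genes all BDL values lay above all FO values. The Gzma and Ncr1 values of BDL and FO B cells overlapped, and the Prf1 mean was lower in BDL (0.852 against 1.44 FPKM), with no call. The part of such cells in the Cxcr3 values was not tested.

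The order of the receptors changed between subsets. In FO B cells Ccr7 took 39.7% of the summed FPKM of all 23 chemokine receptors listed, Cxcr4 32.7%, Cxcr5 13.0% and Ccr6 12.6%, where Ccr7 was above Cxcr4 in each library although their FPKM ranges overlapped, and the ranges of Cxcr5 and Ccr6 overlapped too. In BDL the same order held with Ccr7 at 48.9%, Cxcr4 at 29.3%, Cxcr5 at 12.7% and Ccr6 at 6.05%, and no neighbours among these 4 overlapped. In MZ B cells Ccr7 took 20.0%, Cxcr5 18.8%, Cxcr4 18.5%, Ackr3 15.7%, Ccr6 10.1% and Ackr2 9.96%. Among these, the levels of Ccr7, Cxcr5, Cxcr4 and Ackr3 overlapped with one another, and those of Ccr6 and Ackr2 did too. The shares of Ackr3 and Ackr2 were 0.314% and 0.672% in BDL and 0.0798% and 0.153% in FO B cells.

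Ccr7 and Cxcr4 were highest on date 2 in all 3 subsets, which 901 of the 11597 rows tested (7.77%) also were. On that date Cxcr4 lay above the subset mean by 0.24 in FO B cells, 0.31 in BDL and 0.42 in MZ B cells on the log2 scale, and Ccr7 by 0.24, 0.33 and 0.43. Ccr6 differed from its FO and BDL means by less than 0.1 on every date. The replicate 2 libraries also had the highest summed myeloid markers of each subset, at 9.48, 12.5 and 11.6 FPKM, and the highest T cell markers, at 4.50, 4.56 and 4.85, and the part of these cells in the levels of that date was not tested. Differences between subsets within a date kept their direction for the called receptors. MZ against FO B cells gave -1.69, -1.41 and -1.70 for Cxcr4, and -1.98, -1.57 and -1.74 for Ccr7. BDL against FO B cells gave 2.06, 1.74 and 1.63 for Ackr2, and 1.98, 1.61 and 1.45 for Ackr3.

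**Figure D4:**
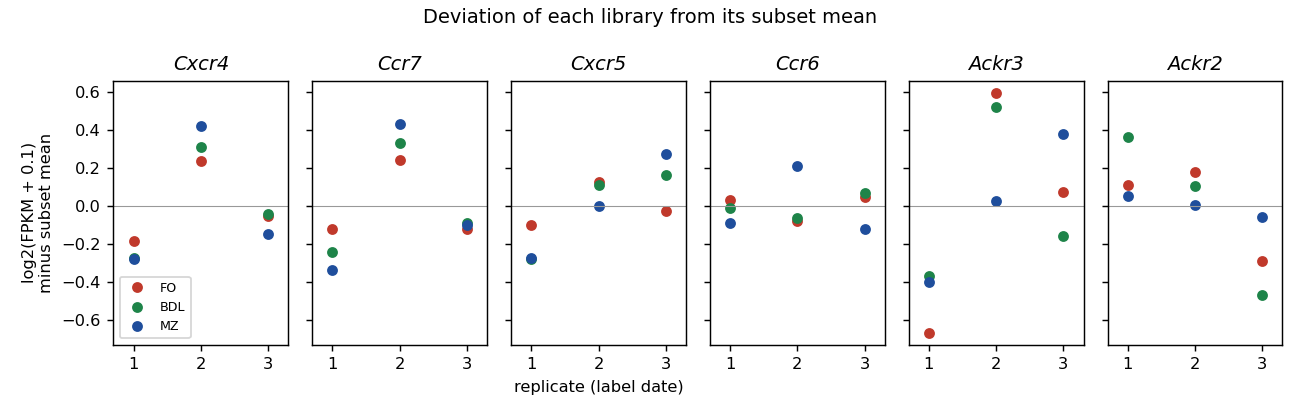
Log2(FPKM + 0.1) of each library minus the mean of its subset for the 6 tested receptors, by replicate (label date), with one colour for each subset. Cxcr4 and Ccr7 are highest on date 2 in all 3 subsets, by 0.24 to 0.43, whereas Ccr6 in FO B cells and BDL stays within 0.1 of its mean.

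Of 15 other chemokine receptors listed, 6 passed the minimum. Between MZ and FO B cells Ccr1 alone was called, as higher, and none as lower (0 at an unadjusted p under 0.05 in that direction from limma), against 5.54% and 3.39% of all rows. At that unadjusted p, 4385 of all 11597 rows passed in either direction. In BDL over FO B cells Ccr1 was again the only call (1.64% of all rows higher and 0.267% lower). Cxcr2, a receptor best known from neutrophils, had means of 5.59 FPKM in FO B cells, 4.76 in BDL and 5.60 in MZ B cells, with no call. Ccr8, Cxcr1 and Ackr1 were listed at 0 in every library.

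Of 19 ligands listed, 5 passed the minimum. Of these, 2 were called higher in MZ than in FO B cells (5.54% of all rows) and the same 2 lower in BDL than in MZ B cells (4.34%). Ccl3, which binds Ccr1, stood at 3.22, 4.33 and 4.41 FPKM in FO B cells, 3.01, 4.16 and 3.57 in BDL, and 20.0, 24.0 and 32.3 in MZ B cells. Its log2 fold change was 2.63 in MZ over FO B cells (adjusted p = 4.1e-05) and -2.78 in BDL against MZ B cells (adjusted p = 3.79e-05). Ccl4, with means of 5.83, 5.15 and 12.5 FPKM in FO, BDL and MZ B cells, was higher in MZ than in FO B cells by 1.15 (adjusted p = 0.0331) and lower in BDL than in MZ B cells by -1.28 (adjusted p = 0.0211). Each Ccl4 call was lost in 7 of 22 alternatives, up to an adjusted p of 0.189 and 0.156. No ligand was called between BDL and FO B cells in limma, where 2821 of all 11597 rows and 1 of the 5 ligands had an unadjusted p under 0.05. That one was Mif, which binds Cxcr4 and Ackr3 as well as Cd74, with means of 64.3 FPKM in FO B cells, 108 in BDL and 97.7 in MZ B cells. It was higher in BDL than in FO B cells by 0.75 on the log2 scale (adjusted p = 0.00389), under the fold minimum. Ccl22, a ligand of Ccr4 that did not pass the minimum, was listed at 0, 0.103 and 0.0199 FPKM in FO B cells, 0.544, 0.459 and 0.591 in BDL, and 0.555, 0.641 and 0.566 in MZ B cells. BDL and MZ B cells lay above FO B cells in every library and overlapped with each other, and the difference was not tested.

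Of 28 genes that act downstream of chemokine receptors, 27 were tested. In MZ against FO B cells 2 were called higher and 2 lower, against 5.54% and 3.39% of all rows, and the median log2 difference of the list was -0.33, beside -0.01 over all rows. Adrbk2 (GRK3), a kinase that phosphorylates active receptors, stood at 1.25, 1.78 and 1.91 FPKM in FO B cells, 1.12, 1.57 and 0.901 in BDL, and 17.0, 22.3 and 20.0 in MZ B cells. It was higher in MZ than in FO B cells by 3.52 on the log2 scale (SE 0.22, adjusted p = 1.41e-05). Grk5, a kinase of the same family, rose from a mean of 1.89 to 5.88 FPKM (log2 1.58, adjusted p = 0.000188). Rasgrp2, an activator of Rap1, fell from 131 to 53.3 FPKM (log2 -1.29, adjusted p = 0.00181), and Pik3cg, the catalytic subunit of PI3K gamma, from 14.5 to 6.56 (log2 -1.14, adjusted p = 0.00115).

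Between BDL and FO B cells 0 of the 27 were called by limma (1.64% of all rows higher and 0.267% lower). At an unadjusted p under 0.05 from limma, 3 were lower in BDL and 0 higher, where 2821 of all 11597 rows passed in either direction. Between BDL and MZ B cells 1 of the 27 was called higher in BDL and 2 lower, against 3.47% and 4.34% of all rows. Most of the list was higher in BDL by less than the fold minimum: the log2 difference was positive for 21 of the 27. Its median was 0.37, beside 0.06 over all rows. At an unadjusted p under 0.05 from limma, 15 were higher in BDL and 3 lower, where 4625 of all 11597 rows passed in either direction. How many of all rows were positive, or passed in each direction, was not counted, so these counts by direction have no background. Pik3cg was higher in BDL (log2 1.18, adjusted p = 0.00106), and Adrbk2 (log2 -3.96, adjusted p = 1.01e-05) and Grk5 (log2 -1.30, adjusted p = 0.000658) were lower. Both Pik3cg calls were lost without label date 1, at adjusted p-values of 0.0643 and 0.0529. Rasgrp2 was higher in BDL than in MZ B cells by 0.93 (adjusted p = 0.00984), and passed the fold minimum without BDL replicate 3 (1.14) and without label date 3 (1.02). Adrbk2 and Ccl3, unlike Ackr2, Ackr3 and Ccr1, had BDL means under the FO means, at 72.6% and 89.9% of them, with no call.

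**Figure D5:**
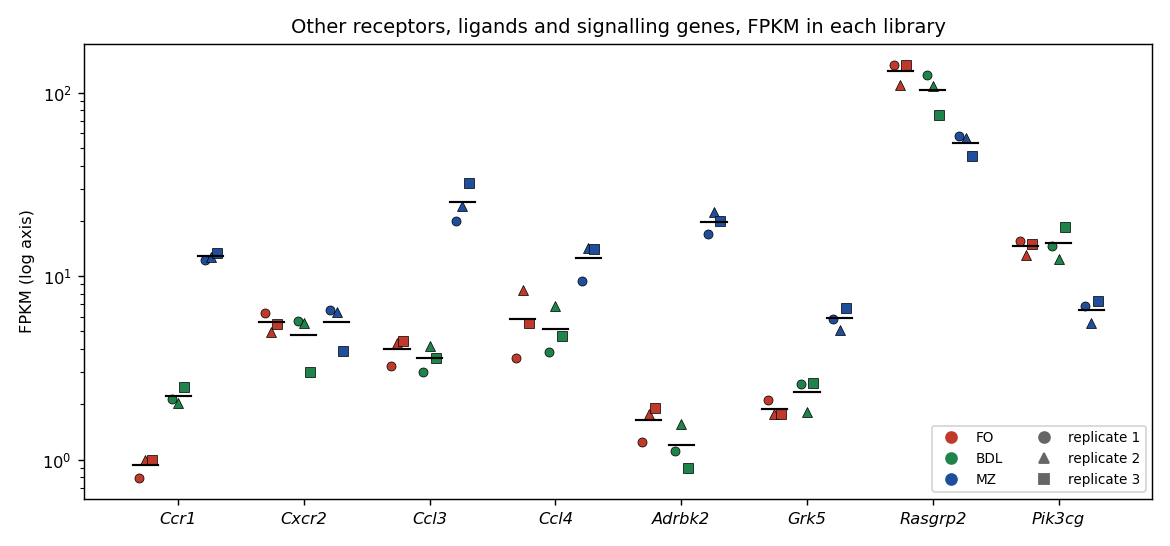
FPKM on a log axis for 8 other receptors, ligands and signalling genes in the 9 libraries, coloured by subset, with the replicate as the marker shape and the mean as a bar. Ccr1, Ccl3, Ccl4, Adrbk2 and Grk5 are highest in MZ B cells, and Rasgrp2 and Pik3cg lowest there, while Ccr1 is the only one of the 8 called in BDL over FO B cells.

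Likeness to a called receptor over the 9 libraries was ranked by Pearson's r of log2(FPKM + 0.1). Rows under the minimum were left out, as were microRNA, small RNA, Gm, LOC, Rik and all-capital names. The genes most like each receptor among the rest are given as a description, since the 9 points fall into 3 subsets and share libraries. For Ackr3 they were Inpp5f (0.9986), Edem1 (0.9977) and Tcf4 (0.9956). Tcf4, the E protein E2-2, had means of 19.3, 22.4 and 37.0 FPKM in FO, BDL and MZ B cells. For Ackr2 they were Csf2rb (0.9974), the shared beta chain of cytokine receptors, with 1.99, 5.02 and 23.6 FPKM, then Abcb1b (0.9966) and Chn2 (0.9959). Ccr7 ran most like Cdc25b (0.9869), a cell cycle phosphatase with 31.6, 33.1 and 8.98 FPKM, then Snx9 (0.9855) and Stambpl1 (0.9852). Cxcr4 ran most like Mdm1 (0.9881), Gadd45g (0.9827) and B3gnt5 (0.9818), and B3gnt5 had 71.9, 59.8 and 27.2 FPKM. The likeness was lower for Ccr6, at 0.9657 for Donson, 0.9587 for Golm1 and 0.958 for Kbtbd11.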

How the data were processed

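RNA-seq of 9 libraries of sorted splenic B cells was analysed. The authors used TopHat2 2.1.0 for alignment to mm9 and Cufflinks for FPKM, and the deposited table gives 1 FPKM value per gene and library; the Cufflinks version and the annotation are not given in the sources used here. A stranded kit with 2 files per sample is named in the paper, but single-end reads without strand in the labels. Columns sum to between 446033 and 517208 FPKM. The table holds no counts, so fragment numbers are estimates based on the spacing of low values, of which 73.0% to 79.1% lay within 0.1 of a whole number. A deposited table of the authors' own Cuffdiff fold changes and p-values was not used.

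Log2(FPKM + 0.1) of rows averaging at least 0.5 FPKM was fitted with limma 3.58.1 in R 4.3.3 (subset as the only term, eBayes with a trend, Benjamini-Hochberg adjustment over 11597 rows), all 9 libraries in 1 fit. Fold changes are on this scale, which understates those of low genes. The fit was tested on simulated data. Groups and label dates came from the sample titles. The label dates are shared between subsets, but the main fit did not pair the libraries of one date. The correlation of the deviations of such libraries from their subset means was 0.147, -0.06 and 0.05 between FO and BDL. It was 0.02, 0.01 and 0.01 between FO and MZ, and 0.10, 0.18 and 0.24 between BDL and MZ B cells. The date was tried as a block, since the published methods include none. The other alternatives were 0.01 or 1 added, a minimum of 1 or 0.1 FPKM or none, the 6 libraries of a comparison alone, quantile normalization, upper quartile scaling, no trend in eBayes, no fold minimum, and each library or label date left out. The minimum of 0.1 FPKM and leaving out a date were added after the data were seen. The members and gene lists were chosen with earlier results of these data known. All 8 members are named, with the called genes of the other lists (up to 5 per list and comparison), other receptors and ligands with a mean of at least 5 FPKM in a subset, and the 3 genes most like each called member; Ccl20, Ccl22, Cxcl12, Cxcl11, Ccr8, Cxcr1, Ackr1 and marker genes were added after their values were seen. Not every gene so chosen is reported here. Coordinates are from GENCODE M1 on NCBIM37 (mm9), promoters from RefSeq on GRCm38.p6. Plots were made in matplotlib 3.10.9 under Python 3.11.15.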

Additional observations from a re-analysis of the deposited data

How the results depend on the processing

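Each of 22 alternatives was run for the 6 tested receptors, and the directions of all called differences held in them. In MZ against FO B cells 5 receptors were called in each alternative but one, where Ccr6 fell just under the fold minimum without label date 3, and 1035 rows were called in all, against 674 with 1 added in place of 0.1 and 3141 by the adjusted p alone. In BDL against FO B cells the 221 calls became 94 with 1 added, 896 by the adjusted p alone, 19 without label date 1 and 78 without label date 2, the latter 2 resting on 2 libraries per subset. The receptors called there went from 3 to 0 without label date 1 and to 1 without label date 2. Without label date 1, 3 receptors still had an unadjusted p under 0.05 from limma, as did 1315 of all 11597 rows. In BDL against MZ B cells 905 rows were called, and 3255 by the adjusted p alone. With the label date as a replicate block the paired fit called 1069, 247 and 942 rows and changed no call of a gene named here. Leaving out 1 library at a time gave 971 to 1067, 166 to 221 and 883 to 960 calls.

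Differences that were not called turned sign in some alternatives. For Ccr7 in BDL against FO B cells the log2 value ran from -0.0383 to 0.25 with 1 library left out. For Cxcr5 in BDL against MZ B cells it ran from -0.10 to 0.17, and was -0.0705 with upper quartile scaling, -0.12 with quantile normalization and -0.0232 without label date 2. For Cxcr2, Ccl4 and Pik3cg in BDL against FO B cells, which no alternative called, the values crossed 0 as well, from -0.50 to 0.0187, -0.44 to 0.16 and -0.11 to 0.18 over the 22 alternatives, and Cxcr2 in MZ against FO B cells ran from -0.22 to 0.21 and in BDL against MZ B cells from -0.49 to 0.0454. The cause of these changes was not tested. Cxcr3 rested on about 2 to 38 fragments per library, Ccr9 on about 27 to 101, and Ackr3 in FO B cells on about 54 to 150. The effect of depth on these genes was not tested.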
